A study of Homo sapiens with 12 samples.

Results

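The 49 interferon-stimulated genes described here were taken by their gene symbols from RNA sequencing values of 23284 genes in 12 libraries of PANC-1, a human pancreatic carcinoma cell line. All cells carried a retroviral reporter in which ZsGreen, a fluorescent protein, is joined to the ornithine decarboxylase degron, a tag for the proteasome, so that green marks low proteasome activity. Degron (-) cells were the infected line as a whole, in which few cells were green, and degron (++) cells were the greenest part of a line enriched for green cells by repeated sorting and culture. Each population was sequenced without irradiation (0 Gy) at 48 h and after 4 Gy of gamma rays at 30 h and at 48 h, with 2 libraries in each of the 6 groups. The starting point of the hours is not stated, and no unirradiated group at 30 h was analysed here. The 6 degron (-) libraries are ZsGreen-negative in their titles but d+ in their descriptions, and the titles were followed.

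Interferons are secreted proteins made by cells that sense viral or misplaced nucleic acids. Type I and type III interferons signal through cell surface receptors and the kinases JAK1 and TYK2 to a complex with STAT2 and IRF9, which binds interferon-stimulated response elements (ISRE) in the promoters of target genes. The targets encode RNA sensors, antiviral enzymes and factors that amplify or end the response, and they are known to be induced by DNA damage in some tumour cells and to be expressed without added interferon in others.

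Values are FPKM, fragments scaled to exon length and to the reads mapped, and the read totals behind them are not given in the sources used here. From the steps between low values, the depth of the libraries relative to each other was 0.889 to 1.13. Differences were tested with limma on log2(FPKM + 1), a scale that understates changes of low genes, for the 12946 genes that reached 1 FPKM in 2 or more libraries. The threshold was a Benjamini-Hochberg adjusted p under 0.05 over all of these genes. Counts of members at an unadjusted p under 0.05 are also given. The share of all genes at that cut was not counted, so those counts have no background beside them. Summed over all genes, a degron (++) library held 829654 to 916877 FPKM and a degron (-) library 707273 to 763064, and each correlated best with one of its own population. For most libraries, however, that nearest library was of another dose or time and not the replicate. The most abundant entry, MIR622, took 28.6% to 30.0% of that total for degron (++) cells and 22.5% to 27.1% for degron (-) cells. The summed level of 5 epithelial markers (KRT7, KRT8, KRT18, KRT19 and EPCAM) was 7120 to 8300 FPKM in degron (++) and 4220 to 5120 in degron (-). Degron (++) means at 0 Gy were 6.33 times those of degron (-) for KRT7, 4.73 for EPCAM, 1.46 for KRT18, 1.39 for KRT8 and 1.13 for KRT19. The sum of 6 leukocyte markers was at most 1.97, with CD3E listed at 0 throughout. Among these, CD14 was at 1.45 to 1.92 FPKM in degron (++) and 0.187 to 1.02 in degron (-). ITGAM went the other way, at 0 to 0.018 and 0.358 to 0.895. CDKN2A, a tumour suppressor gene at 9p21 that PANC-1 cells are known to have lost, was nonetheless present, at 100.4 to 112 FPKM in degron (++) and at 11 to 21.1 FPKM in degron (-) libraries. CDKN2B and MTAP, its neighbours, differed in the same direction. As a measure of this difference, the median of the 3 genes as a percentage of their degron (++) means was 95.5 to 106 in degron (++). In degron (-) it was 14.5 to 17.9 at 0 Gy, 10.5 to 11.8 at 30 h after 4 Gy and 20.1 to 22.5 at 48 h after 4 Gy. Whether the populations also differ in origin cannot be told apart from their difference in the reporter, and the part of the 9p21 difference in any result was not tested.

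The promoters of 4 members are shown because they carry matches to the ISRE core and because the genes differed in opposite directions between the populations. The bases are the 250 before the transcription start in RefSeq (GRCh38.p14, while the values were made on hg19), 5′ to 3′ on the strand of the gene, with the core (GAAA, any 2 bases, GAAA, or TTTC, any 2 bases, TTTC where the match is on the opposite strand) in capitals. They lie at chr10:89392373-89392622 (plus strand) for IFIT1, chr10:89332279-89332528 (plus strand, the second of 2 listed starts) for IFIT3, chr1:27672193-27672442 (minus strand) for IFI6 and chr19:17405631-17405880 (minus strand) for BST2.
IFIT1: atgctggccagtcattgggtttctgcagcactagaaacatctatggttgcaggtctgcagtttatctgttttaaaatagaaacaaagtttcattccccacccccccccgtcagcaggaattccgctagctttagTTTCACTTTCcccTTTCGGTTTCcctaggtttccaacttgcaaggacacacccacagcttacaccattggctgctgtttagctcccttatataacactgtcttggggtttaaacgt
IFIT3: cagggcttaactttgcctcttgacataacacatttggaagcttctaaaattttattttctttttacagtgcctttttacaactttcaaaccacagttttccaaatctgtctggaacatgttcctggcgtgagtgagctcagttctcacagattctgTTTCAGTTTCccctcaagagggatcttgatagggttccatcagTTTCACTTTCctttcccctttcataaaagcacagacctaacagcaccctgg
IFI6: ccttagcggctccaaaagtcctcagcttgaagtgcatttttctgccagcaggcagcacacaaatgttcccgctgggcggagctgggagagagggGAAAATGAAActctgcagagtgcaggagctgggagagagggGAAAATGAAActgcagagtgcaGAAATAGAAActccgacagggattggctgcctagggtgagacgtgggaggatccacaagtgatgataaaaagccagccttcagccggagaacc
BST2: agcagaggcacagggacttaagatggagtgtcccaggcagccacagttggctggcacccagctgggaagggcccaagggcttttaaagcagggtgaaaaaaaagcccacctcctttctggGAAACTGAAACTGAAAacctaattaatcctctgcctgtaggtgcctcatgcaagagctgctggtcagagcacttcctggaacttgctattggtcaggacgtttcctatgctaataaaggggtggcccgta
IFIT1 and IFI6 were lower in degron (++) than in degron (-) cells and IFIT3 and BST2 were higher, although all of these windows hold the same core. The 2 matches of BST2 overlap each other.

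Windows of 300 bases (250 before and 50 after a start) were given for 39 of the 49 members. At least 1 match to the core on either strand was found in 26 of the 39, against 3.57% of all 35116 RefSeq windows of this length. The letters TTC, any 3 bases, GAA, the core of the gamma-activated site, were found in 13 of the 39 members against 7.66% of all windows. Both searches covered both strands and were counted separately, since the motifs can share letters. A member with several windows was counted once if any window matched. The shares of all windows were counted per window, so they are not in the same unit as the member counts. Of the members higher in degron (++) at 0 Gy, 17 of 28 with a window held the ISRE core, and of those lower, 4 of 5 did. A match to these letters does not show that a factor was bound. DHX58, OAS2, OASL, IRF7, UBA7, USP18, IFIT2, IFITM2, MX2 and TRIM22 had no window.

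By their mean FPKM over all 12 libraries, 8 members lay below 1, 22 between 1 and 10, 15 between 10 and 100, and 4 above 100. The most abundant was IFITM3, a membrane protein that blocks the entry of viruses, at 503 to 619.9 FPKM in degron (++) and 684 to 769 in degron (-). It was followed by LGALS3BP, a secreted galectin-binding glycoprotein, at 345 to 369 and 55.3 to 101 FPKM, and by ISG15, a ubiquitin-like protein, at 148 to 181 and 74.9 to 106 FPKM. The populations did not overlap in any of these, and the order of IFITM3 was opposite to that of LGALS3BP and ISG15. At the other end, 4 members did not pass the filter on low values. They were IFI27 (0 to 0.582 FPKM), IFI44L (0 to 0.0160), RSAD2 (0 to 0.0540) and TRIM22 (0 to 0.0530), genes that are often among the strongest responders to interferon in other cells, and they were at or near 0 in both populations. The other 45 members were tested. Of these, 9 passed the filter through 1 population alone, with fewer than 2 libraries of the other at 1 FPKM (DHX58, HERC5, HERC6, MX1, MX2, GBP1, CMPK2, SAMD9L and IFI44), so that their being tested is tied to a difference.

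**Figure D1:**
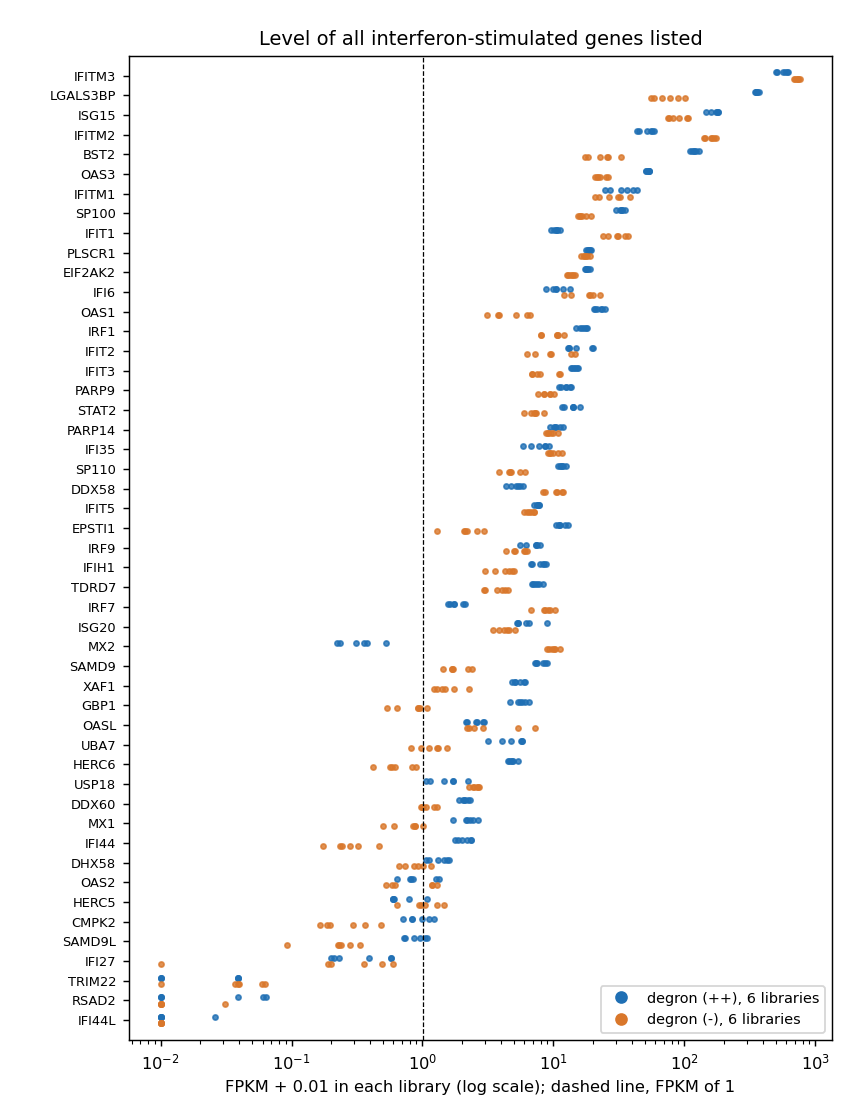
Level of each of the 49 interferon-stimulated genes in each library, as FPKM + 0.01 on a log scale, ordered by mean level, with degron (++) libraries in blue, degron (-) libraries in orange and a dashed line at 1 FPKM. MX2 and IRF7 lie to the left in blue while LGALS3BP, BST2 and OAS1 lie to the right in blue, and 4 genes stay below the line in all 12 libraries.

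In unirradiated cells at 48 h, 31 of the 45 members were higher and 9 were lower in degron (++) than in degron (-) cells. Over all genes tested, 77.7% passed the threshold in this comparison, 37.6% higher and 40.2% lower, and passing was therefore common. The median log2 fold change of the members was 0.66, against -0.02 over all genes, and the median size regardless of sign was 0.86 against 0.51. The differences ran from -2.97 for MX2 to 2.26 for LGALS3BP. The libraries of the populations did not overlap for 33 members with degron (++) above and 9 with degron (++) below, compared with 42.5% and 45.4% of all genes. These counts and medians include the 9 members that passed the filter through 1 population alone, whose being tested is tied to a difference. In bulk RNA of this kind, a difference in the share of cells that express a gene and a difference in the RNA per cell cannot be told apart. Rescaling each library to a sum of 1000000 (TPM) moved the median of all genes to -0.21 and the higher share of all calls from 48.3% to 35.9%, and left 26 members higher and 10 lower. The sum used includes MIR622, whose share of it was larger in degron (++) libraries, and a call lost after this rescaling is to be read with that shift.

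**Figure D2:**
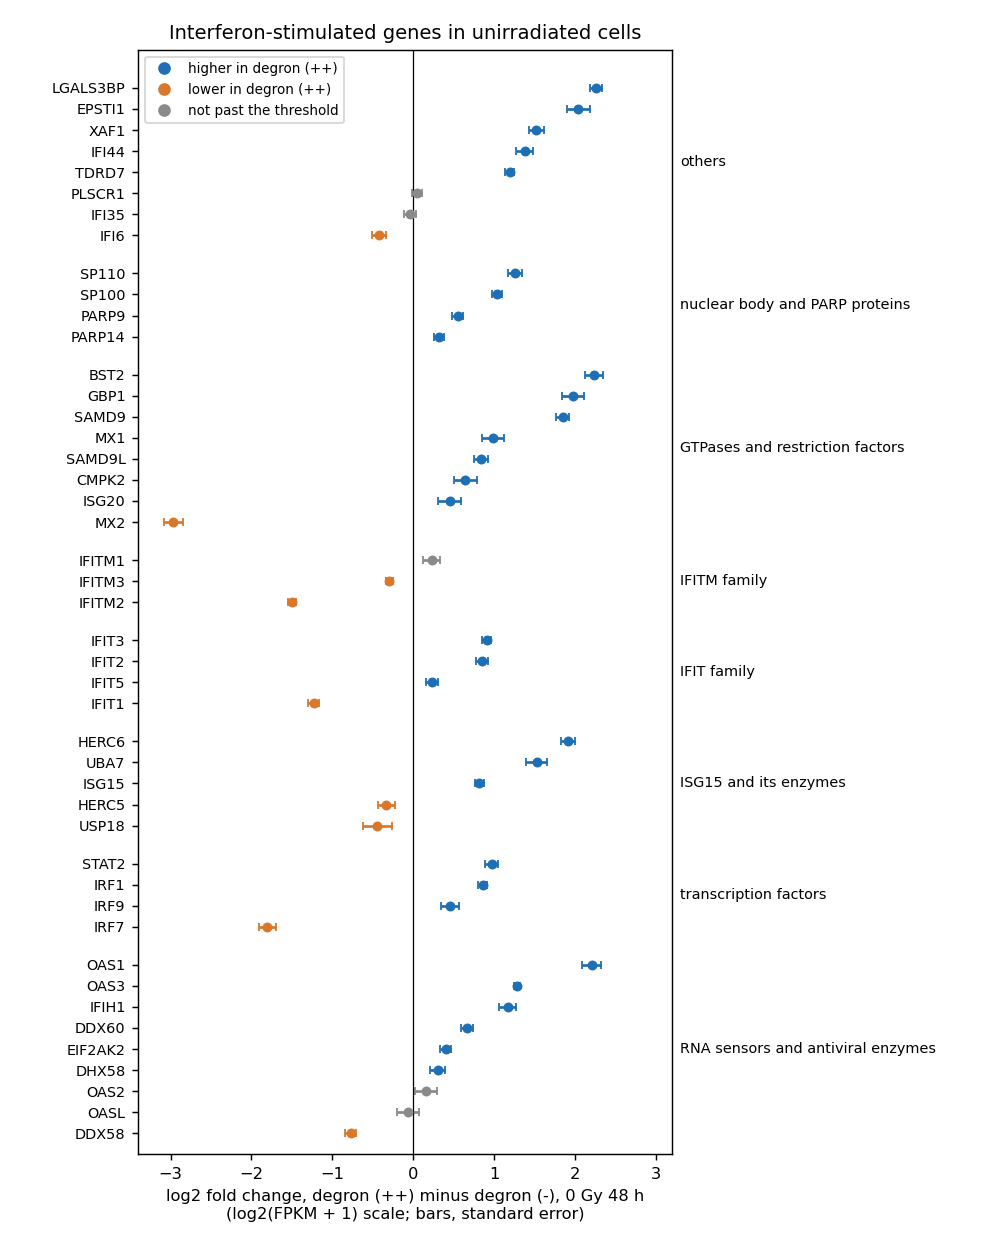
Log2 fold change (log2(FPKM + 1) scale) with its standard error for the 45 tested members in unirradiated cells at 48 h, degron (++) minus degron (-), grouped by role and coloured by the call. Every group but the nuclear body and PARP proteins has members on both sides of 0, with MX2 at -2.97 and LGALS3BP at 2.26 as the extremes.

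Of the 9 RNA sensors and antiviral enzymes, 6 were higher, 1 was lower and 2 did not pass. This count and those of the roles below stand beside 37.6% of all genes higher and 40.2% lower. No role was tested against these shares. OAS1, an antiviral enzyme that makes oligoadenylates, was at 24.9 and 23.7 FPKM in degron (++) and 5.18 and 3.85 in degron (-) libraries (log2 fold change 2.21 ± 0.113 SE, adjusted p = 1.55e-07). Its neighbour and paralogue OAS3 was at 54.2 and 52.4 against 21.7 and 20.8 FPKM (log2 fold change 1.29 ± 0.0385 SE, adjusted p = 6.38e-09). IFIH1 (MDA5), a sensor of long double-stranded RNA, was at 8.74 and 8.49 against 3.56 and 3.0 FPKM (log2 fold change 1.17 ± 0.107 SE, adjusted p = 7.71e-06). All 3 were higher in both degron (++) libraries than in either degron (-) library. DDX58 (RIG-I), the sensor of short uncapped RNA, went the other way, at 4.75 and 4.32 FPKM in degron (++) and 8.34 and 8.54 in degron (-) (log2 fold change -0.77 ± 0.0663 SE, adjusted p = 5e-06). The 2 RNA sensors thus differed in opposite directions. DDX60, a related helicase, was higher (0.66, adjusted p = 4.14e-05), as were EIF2AK2 (PKR), the kinase that halts translation (0.40, adjusted p = 0.000531), and DHX58 (LGP2), a regulator of the sensors (0.30, adjusted p = 0.0155). EIF2AK2 and DHX58 did not pass after TPM rescaling (adjusted p = 0.0817 and 0.119). OAS2 (0.630 and 0.831 against 0.519 and 0.577 FPKM, 0.16, adjusted p = 0.296) lay between 0.519 and 0.831 FPKM in these 4 libraries, and passed as higher only after quantile normalization (adjusted p = 0.00365). OASL (2.15 and 2.19 against 2.46 and 2.18 FPKM, -0.07, adjusted p = 0.663), an OAS relative without the synthase activity, overlapped between the populations.

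Among the 4 transcription factors, STAT2, IRF9 and IRF1 were higher and IRF7 was lower. STAT2, a subunit of the factor that binds the ISRE, was at 16.0 and 14.1 against 7.09 and 7.26 FPKM (log2 fold change 0.97 ± 0.0804 SE, adjusted p = 3.92e-06). IRF9, the DNA-binding subunit of the same factor, was at 7.46 and 7.32 against 6.04 and 4.30 FPKM (log2 fold change 0.46 ± 0.115 SE, adjusted p = 0.0052), and its degron (-) libraries differed more from each other than its degron (++) libraries did. IRF1, which acts on many promoters of this group, was at 14.9 and 16.0 against 8.02 and 8.09 FPKM (log2 fold change 0.86 ± 0.0541 SE, adjusted p = 6.09e-07). By contrast IRF7, the factor that amplifies interferon alpha genes, was at 2.02 and 2.1 FPKM in degron (++) and 10.3 and 9.10 in degron (-) (log2 fold change -1.80 ± 0.107 SE, adjusted p = 4.2e-07). Both degron (-) libraries were more than 4 times as high as either degron (++) library.

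ISG15 and the enzymes that attach and remove it were split, with 3 higher and 2 lower. ISG15 was at 148 and 161 FPKM in degron (++) and 91.8 and 82.2 in degron (-) (log2 fold change 0.82 ± 0.0549 SE, adjusted p = 9.34e-07). UBA7, the enzyme that activates ISG15, was at 5.70 and 5.66 against 1.11 and 1.54 FPKM (log2 fold change 1.53 ± 0.128 SE, adjusted p = 4.23e-06). HERC6 was at 5.36 and 4.49 against 0.559 and 0.574 FPKM (log2 fold change 1.92 ± 0.0927 SE, adjusted p = 1.1e-07). The libraries of these 3 did not overlap. HERC5, the main ligase of ISG15 in human cells and the neighbour of HERC6 in the gene order, was lower, at 0.587 and 0.596 against 0.971 and 1.03 FPKM (log2 fold change -0.33 ± 0.108 SE, adjusted p = 0.0193). Quantile normalization reversed it to 0.07 (adjusted p = 0.581), and leaving out either degron (++) library or the second degron (-) library raised its adjusted p above the threshold. USP18, which removes ISG15 and damps receptor signalling, was at 1.71 and 1.71 against 2.70 and 2.66 FPKM (log2 fold change -0.44 ± 0.176 SE, adjusted p = 0.0437), and did not pass with any 1 of these libraries left out. Its call was also lost with a pseudocount of 0.1, without the filter and after quantile normalization.

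The IFIT genes, whose proteins bind viral RNA, lie next to each other in the order IFIT2, IFIT3, IFIT1 and IFIT5, with 1 other gene between IFIT3 and IFIT1. IFIT2 was at 13.1 and 12.9 FPKM in degron (++) and 7.23 and 6.31 in degron (-) (log2 fold change 0.85 ± 0.072 SE, adjusted p = 4.52e-06), and IFIT3 was at 13.7 and 13.9 against 6.88 and 6.87 (log2 fold change 0.91 ± 0.0537 SE, adjusted p = 4.03e-07). IFIT1, in the same cluster, was at 10.7 and 9.50 FPKM in degron (++) and 26.3 and 23.7 in degron (-) (log2 fold change -1.23 ± 0.0718 SE, adjusted p = 3.69e-07). Levels of IFIT2 and IFIT3 were therefore above those of IFIT1 in degron (++) libraries and below them in degron (-) libraries. IFIT5 differed little (0.24, adjusted p = 0.0173), and did not pass after TPM rescaling (adjusted p = 0.648).

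The IFITM genes also form a cluster and encode near-identical proteins, so that reads may have been shared between them and their values are uncertain. IFITM2 was lower, at 55.9 and 58.9 FPKM in degron (++) against 168 and 160.3 in degron (-) (log2 fold change -1.50 ± 0.0525 SE, adjusted p = 1.54e-08). IFITM3 was at 606 and 619.9 against 769 and 735 FPKM (log2 fold change -0.29 ± 0.0411 SE, adjusted p = 0.000144), and IFITM1 at 43.3 and 40.4 against 38.8 and 32.4 (0.23, adjusted p = 0.0699). The libraries of the populations were apart for all 3, but IFITM1 did not pass.

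Of the 8 tested GTPases and restriction factors, 7 were higher and 1 was lower, beside 37.6% and 40.2% of all genes. GBP1, MX1, CMPK2 and SAMD9L passed the filter through degron (++) alone, and MX2 through degron (-) alone. BST2 (tetherin), which holds budding viruses at the cell surface, was at 119 and 119 FPKM in degron (++) and 26.3 and 22.7 in degron (-) (log2 fold change 2.24 ± 0.108 SE, adjusted p = 1.07e-07). GBP1, a GTPase that acts on intracellular bacteria, was at 6.53 and 5.55 against 0.955 and 0.631 FPKM (log2 fold change 1.98 ± 0.134 SE, adjusted p = 1.02e-06), and SAMD9, a restriction factor of poxviruses, at 8.98 and 8.25 against 1.67 and 1.66 (log2 fold change 1.85 ± 0.0797 SE, adjusted p = 5.33e-08). These 3 were among the 8 largest positive differences of the members. MX2, a GTPase that restricts lentiviruses, showed the largest difference of any member, at 0.368 and 0.298 FPKM in degron (++) and 9.0 and 9.83 in degron (-) (log2 fold change -2.97 ± 0.121 SE, adjusted p = 3.86e-08). The ratio of the means was 28.3. MX1, the gene next to it, was higher instead, at 2.44 and 2.17 against 0.869 and 0.486 FPKM (log2 fold change 0.99 ± 0.136 SE, adjusted p = 0.000133). SAMD9L (0.83, adjusted p = 1.63e-05), CMPK2 (0.65, adjusted p = 0.00297) and ISG20 (0.45, adjusted p = 0.0172) were higher at low levels, and ISG20 did not pass after TPM rescaling (adjusted p = 0.0664).

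All 4 nuclear body and PARP proteins were higher, beside 37.6% of all genes. SP110, a nuclear body protein, was at 11.3 and 11.7 FPKM in degron (++) and 4.71 and 3.80 in degron (-) (log2 fold change 1.26 ± 0.085 SE, adjusted p = 9.79e-07). SP100, a core component of the same bodies, followed (1.04, adjusted p = 4.61e-07). The ADP-ribosyltransferases PARP9 (0.55, adjusted p = 4.23e-05) and PARP14 (0.32, adjusted p = 0.00112) differed less, and PARP14 did not pass after TPM rescaling (adjusted p = 0.162).

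Of the 8 other members tested, 5 were higher, 1 was lower and 2 did not pass. LGALS3BP was at 345 and 354 FPKM in degron (++) and 77.1 and 67.5 in degron (-), a difference of 4.84 times (log2 fold change 2.26 ± 0.0726 SE, adjusted p = 9.25e-09). EPSTI1 was at 11.2 and 12.3 against 2.08 and 2.1 FPKM (log2 fold change 2.04 ± 0.142 SE, adjusted p = 1.22e-06), and XAF1, a binding partner of the apoptosis inhibitor XIAP, at 5.97 and 6.04 against 1.47 and 1.40 (log2 fold change 1.53 ± 0.0921 SE, adjusted p = 4.65e-07). IFI44 (1.38, adjusted p = 2.51e-06) and TDRD7, a tudor domain protein (1.19, adjusted p = 1.22e-07), were higher too. In all 5, both degron (++) libraries exceeded both degron (-) libraries. IFI6, a membrane protein with an antiapoptotic activity, was lower, at 9.94 and 8.71 against 13.6 and 12 FPKM (log2 fold change -0.42 ± 0.0893 SE, adjusted p = 0.00207). PLSCR1, a phospholipid scramblase (0.05, adjusted p = 0.517), and IFI35 (-0.04, adjusted p = 0.669) overlapped between the populations, and IFI35 passed as lower after TPM rescaling (adjusted p = 0.0107).

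The same contrast was made in irradiated cells. At 30 h after 4 Gy, 28 members were higher and 8 were lower in degron (++) than in degron (-) cells, with 79.1% of all genes past the threshold (38.3% higher, 40.8% lower). At 48 h after 4 Gy, 29 were higher and 11 lower, with 76.7% of all genes past it (37.1% higher, 39.6% lower). Libraries were apart with degron (++) above for 32 members and below for 10 at 30 h (43.5% and 45.8% of all genes), and for 32 and 11 at 48 h (42.9% and 44.6%). The medians of the members were 0.52 and 0.50, against -0.02 and -0.01 over all genes, and TPM rescaling moved those of all genes to -0.27 and -0.25 and the higher share of all calls from 48.5% to 33.3% and from 48.3% to 31.7%. After rescaling, 24 members were higher and 10 lower at 30 h, and 22 were higher and 12 lower at 48 h. No member was called in opposite directions in different conditions. Over all 3 conditions, 26 members (57.8% of those tested) passed as higher each time and had all 6 degron (++) libraries above all 6 degron (-) libraries, compared with 32.1% of all genes. In the other direction 6 members did so, namely DDX58, IRF7, IFIT1, IFITM2, IFITM3 and MX2 (13.3%, compared with 34.9%). Of the 26, HERC6, MX1, GBP1, CMPK2, SAMD9L and IFI44 had passed the filter through degron (++) alone. MX2 had passed it through degron (-) alone. For these genes, being tested is tied to the difference counted. The count of 26 also depends on scaling. After TPM rescaling, EIF2AK2 and ISG20 passed in none of the 3 conditions. PARP9 did not pass at either time after 4 Gy, and IFIH1 and IFIT3 did not pass at 48 h after 4 Gy.

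Some members were called in only some of the conditions, although the difference between conditions was not tested in this way. IRF9, IFIT5 and PARP14 passed as higher at 0 Gy but not after 4 Gy at either time. OASL, which did not pass at 0 Gy, was lower in degron (++) at 48 h after 4 Gy, at 2.96 and 2.6 against 5.33 and 7.17 FPKM (log2 fold change -0.93 ± 0.132 SE, adjusted p = 0.00017). IFI35 was lower in degron (++) at both times after 4 Gy (-0.55, adjusted p = 0.000145 at 30 h and -0.42, adjusted p = 0.000928 at 48 h). HERC5 and USP18 did not pass at 30 h, and IFITM1 passed as higher only at 48 h after 4 Gy (0.27, adjusted p = 0.0416), where TPM rescaling gave 0.01. OAS2 and PLSCR1 passed in none of the 3. After quantile normalization both passed as higher at 48 h after 4 Gy (adjusted p = 0.0403 and 0.0184). PLSCR1 passed as lower at 30 h after TPM rescaling (adjusted p = 0.0105). TPM rescaling also removed the calls of IFIH1 and IFIT3 at 48 h after 4 Gy (adjusted p = 0.0563 and 0.0944). Those of DHX58, EIF2AK2, ISG20 and PARP9 were lost at 30 h (0.145, 0.472, 0.353 and 0.0646) and at 48 h (0.132, 0.194, 0.0527 and 0.308). With this rescaling USP18 passed as lower at 30 h (-0.65, adjusted p = 0.0123) and PARP14 at 48 h (-0.3, adjusted p = 0.00738).

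The change with 4 Gy at 48 h was measured within each population, against its own unirradiated libraries. These are the libraries of the comparison at 0 Gy, so the results are not independent of it. In degron (++) cells 1 of the 45 members passed, against 1.82% of all genes (1.42% higher, 0.402% lower), and 11 members had an unadjusted p under 0.05. This was IFIT2, which rose from 13.1 and 12.9 FPKM at 0 Gy to 20.0 and 19.7 at 4 Gy (log2 fold change 0.58 ± 0.072 SE, adjusted p = 0.014). Leaving out any 1 of the 4 libraries took its adjusted p to 0.0654 or higher, which left 0 members past the threshold with 5 to 11 at an unadjusted p under 0.05. The other members ran from -0.26 for IFITM1 to 0.41 for ISG20, with a median over all members of -0.04 and over all genes of 0.00. Libraries were apart upwards for 11 members and downwards for 17, compared with 24.6% and 21.9% of all genes. TPM rescaling moved the higher share of all calls here from 78.0% to 59.6% and left the call of IFIT2.

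In degron (-) cells 13 members rose with 4 Gy at 48 h and 0 fell, which is 28.9% of the members tested, against 4.73% of all genes (3.85% higher, 0.873% lower). An unadjusted p under 0.05 was reached by 25 members. The median change of the members was 0.23, against 0.01 over all genes, and both irradiated libraries were above both unirradiated libraries for 31 members and below them for 4, compared with 27.3% and 23.3% of all genes. The count rested on the spread shared by all 12 libraries. With only the 4 libraries compared, 0 members passed, while 24 had an unadjusted p under 0.05. Neither 25 nor 24 can be set against all genes, whose share at that cut was not counted. TPM rescaling gave 10 up and 1 down, the latter IFITM2 (adjusted p = 0.05 when rounded). With all 12 libraries but 1, the count fell to 6 without the second unirradiated library and to 5 without the second irradiated library. The 9p21 measure was higher in the irradiated than in the unirradiated libraries of this comparison, at 20.1 to 22.5 against 14.5 to 17.9, and its part in the rise was not tested.

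The largest rise was that of OASL, from 2.46 and 2.18 FPKM to 5.33 and 7.17 (log2 fold change 1.12 ± 0.132 SE, adjusted p = 0.00404). The irradiated libraries differed from each other but both exceeded all degron (++) libraries, the highest of which had 2.96 FPKM. IFIT2 rose from 7.23 and 6.31 to 13.7 and 14.6 FPKM (log2 fold change 0.96 ± 0.072 SE, adjusted p = 0.000637) and IFIT3 from 6.88 and 6.87 to 11 and 11.2 (log2 fold change 0.62 ± 0.0537 SE, adjusted p = 0.00112). IFIT1 rose as well, from 26.3 and 23.7 to 35.1 and 37.4 FPKM (log2 fold change 0.52 ± 0.0718 SE, adjusted p = 0.00684). The 3 IFIT genes thus rose together from levels that were below degron (++) for IFIT2 and IFIT3 and above it for IFIT1. IFI6 rose from 13.6 and 12 to 22.9 and 20.1 FPKM (log2 fold change 0.70 ± 0.0893 SE, adjusted p = 0.00546). The sensors also rose, DDX58 from 8.34 and 8.54 to 11.5 and 11.9 FPKM (log2 fold change 0.43 ± 0.0663 SE, adjusted p = 0.0103) and IFIH1 from 3.56 and 3.0 to 4.82 and 4.96 (log2 fold change 0.46 ± 0.107 SE, adjusted p = 0.0474). IFIH1 was the least certain of these, with an adjusted p of 0.0682 to 0.21 with 1 library left out, and DDX58 and IFIH1 lost their calls after TPM rescaling (adjusted p = 0.0585 and 0.0794).

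The other 6 rose by less than 0.5 on the log2 scale. IRF1 went from 8.02 and 8.09 to 10.8 and 12 FPKM (log2 fold change 0.45 ± 0.0541 SE, adjusted p = 0.00406), and TDRD7 from 2.92 and 2.98 to 4.29 and 4.48 (log2 fold change 0.45 ± 0.0589 SE, adjusted p = 0.00581). LGALS3BP went from 77.1 and 67.5 to 88.8 and 101 FPKM (log2 fold change 0.39 ± 0.0726 SE, adjusted p = 0.0224). In each of these 3 the irradiated libraries remained below the lowest degron (++) library. SP110 went from 4.71 and 3.80 to 6.11 and 5.53 FPKM (log2 fold change 0.38 ± 0.085 SE, adjusted p = 0.0427), ISG15 from 91.8 and 82.2 to 104 and 106 (log2 fold change 0.27 ± 0.0549 SE, adjusted p = 0.0296) and OAS3 from 21.7 and 20.8 to 25.4 and 26.3 (log2 fold change 0.27 ± 0.0385 SE, adjusted p = 0.00788). They too stayed below degron (++), and the calls of SP110 and ISG15 were lost with any 1 of 3 libraries left out. SP110 also lost its call after TPM rescaling (adjusted p = 0.0605). Members that did not pass ran from -0.30 for IFITM1 to 0.53 for OAS2.

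Of the 13, 10 changed in the direction of the degron (++) level, as set by the populations at 30 h after 4 Gy. The other 3 (DDX58, IFIT1 and IFI6) changed away from it. For OASL the populations hardly differed there, at means of 2.72 and 2.57 FPKM. All 13 rose, so the direction follows from which population was higher at 30 h after 4 Gy. The share of all genes past the threshold that changed toward the degron (++) level was not counted. In 4 of the 13 (DDX58, IFIT1, IFI6 and OASL), both irradiated degron (-) libraries at 48 h lay above every one of the 6 degron (++) libraries. For IFIT1 these were 35.1 and 37.4 FPKM against 9.50 to 11.1 in degron (++), and for IFI6 they were 22.9 and 20.1 against 8.71 to 13.3. DDX58 and IFIT1 in degron (-) were above every degron (++) library already without irradiation. Among the 13, 11 had a promoter window and 7 of these held the ISRE core. The window of DDX58 held neither motif.

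**Figure D3:**
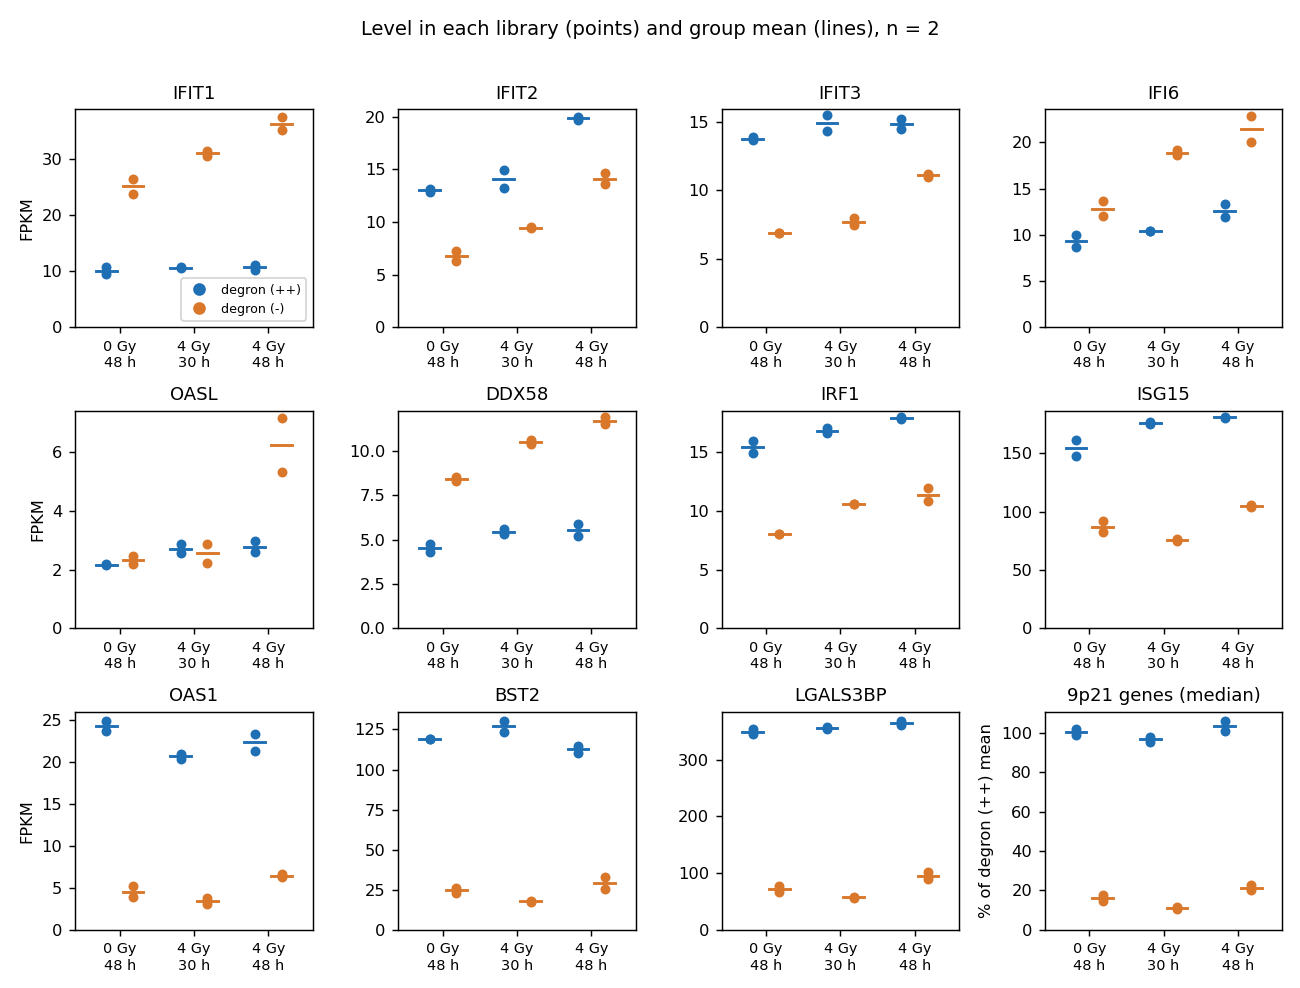
FPKM in each library (points) and group mean (lines, n = 2) for 11 members, and the median level of 3 genes at 9p21 as a percentage of the degron (++) mean, by dose and time, with degron (++) in blue and degron (-) in orange. IFIT1, DDX58 and IFI6 climb in degron (-) from levels at 0 Gy that are above those of degron (++) at 0 Gy. OASL stands out in degron (-) at 48 h after 4 Gy with 5.33 and 7.17 FPKM. BST2, OAS1 and LGALS3BP in degron (-) are lowest at 30 h, as is the 9p21 measure.

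The change from 30 h to 48 h after 4 Gy was the last comparison within a population. It shares the irradiated 48 h libraries with the change with dose, so the values of both are given side by side and were not compared as if independent. In degron (++) cells 2 members rose and 0 fell, against 1.21% of all genes (0.657% higher, 0.548% lower), with 13 members at an unadjusted p under 0.05. IFIT2 rose from 14.9 and 13.2 to 20.0 and 19.7 FPKM (log2 fold change 0.47 ± 0.072 SE, adjusted p = 0.0265) and IFITM2 from 43.6 and 45.5 to 51.9 and 56.7 (log2 fold change 0.28 ± 0.0525 SE, adjusted p = 0.0464). Neither passed with any 1 of the 4 libraries left out, when 6 to 9 members had an unadjusted p under 0.05. The median change of the members was 0.06, against 0.00 over all genes, and libraries were apart upwards for 24 members and downwards for 5, compared with 21.4% and 22.9% of all genes.

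In degron (-) cells 10 members rose from 30 h to 48 h and 1 fell, which is 24.4% of those tested, against 7.18% of all genes (6.01% higher, 1.17% lower). The median change was 0.22 against 0.00 over all genes, and 23 members had an unadjusted p under 0.05. Libraries were apart upwards for 34 members and downwards for 1, compared with 28.6% and 26.4% of all genes. With only the 4 libraries compared, 0 passed and 23 had an unadjusted p under 0.05. Quantile normalization moved the higher share of all calls from 83.7% to 72.5% and gave the same split of 10 members up and 1 down. The count was 7 without the first library at 30 h and 6 without the second at 48 h. Of the members that passed with all 12 libraries, 10 changed in the direction of the degron (++) level, as set by the populations at 0 Gy. The fall of IFITM2 was among them. The remaining 1 (OASL) changed away from it, from population means that hardly differed there, at 2.17 and 2.32 FPKM. Again, no share of all genes that changed toward the degron (++) level was counted. The 9p21 measure was 10.5 to 11.8 at 30 h and 20.1 to 22.5 at 48 h, and its part in the change was not tested.

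OASL rose from 2.25 and 2.89 to 5.33 and 7.17 FPKM (log2 fold change 1.02 ± 0.132 SE, adjusted p = 0.00295), close to its change with dose. OAS1 rose from 3.09 and 3.76 to 6.30 and 6.6 FPKM (log2 fold change 0.75 ± 0.113 SE, adjusted p = 0.00565), LGALS3BP from 55.3 and 58.5 to 88.8 and 101 (log2 fold change 0.73 ± 0.0726 SE, adjusted p = 0.000985) and BST2 from 17.3 and 18.2 to 25.5 and 33.0 (log2 fold change 0.68 ± 0.108 SE, adjusted p = 0.00759). These 3 had their lowest degron (-) values at 30 h, below the unirradiated libraries. For BST2 the unirradiated and irradiated libraries at 48 h overlapped, and its change with dose was 0.24, adjusted p = 0.255. IFIT2 (0.53, adjusted p = 0.00352), IFIT3 (0.48, adjusted p = 0.00154) and ISG15 (0.47, adjusted p = 0.0019) rose with time as they had with dose. IFIT2 was at 9.55 and 9.39 FPKM at 30 h, between its unirradiated and its later level, while ISG15 at 30 h, at 76.5 and 74.9 FPKM, was below both.

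XAF1 rose from 1.22 and 1.29 to 1.73 and 2.24 FPKM (log2 fold change 0.40 ± 0.0921 SE, adjusted p = 0.0365), SAMD9 from 1.69 and 1.44 to 2.23 and 2.40 (log2 fold change 0.37 ± 0.0797 SE, adjusted p = 0.0274) and OAS3 from 21.6 and 22.5 to 25.4 and 26.3 (log2 fold change 0.22 ± 0.0385 SE, adjusted p = 0.012). After TPM rescaling these 3 no longer passed (adjusted p = 0.0658, 0.0882 and 0.0968). IFITM2 fell from 163 and 174 to 144 and 142 FPKM (log2 fold change -0.24 ± 0.0525 SE, adjusted p = 0.03), while it had risen in degron (++). IFIT1, DDX58 and IFI6, which had risen with dose, did not pass between the times (0.22, adjusted p = 0.11, 0.14, adjusted p = 0.251 and 0.17, adjusted p = 0.297). At 30 h they were already above the unirradiated libraries, at 31.4 and 30.5 FPKM for IFIT1, 10.6 and 10.4 for DDX58 and 18.6 and 19.1 for IFI6, although no unirradiated group at 30 h was there to test this.

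**Figure D4:**
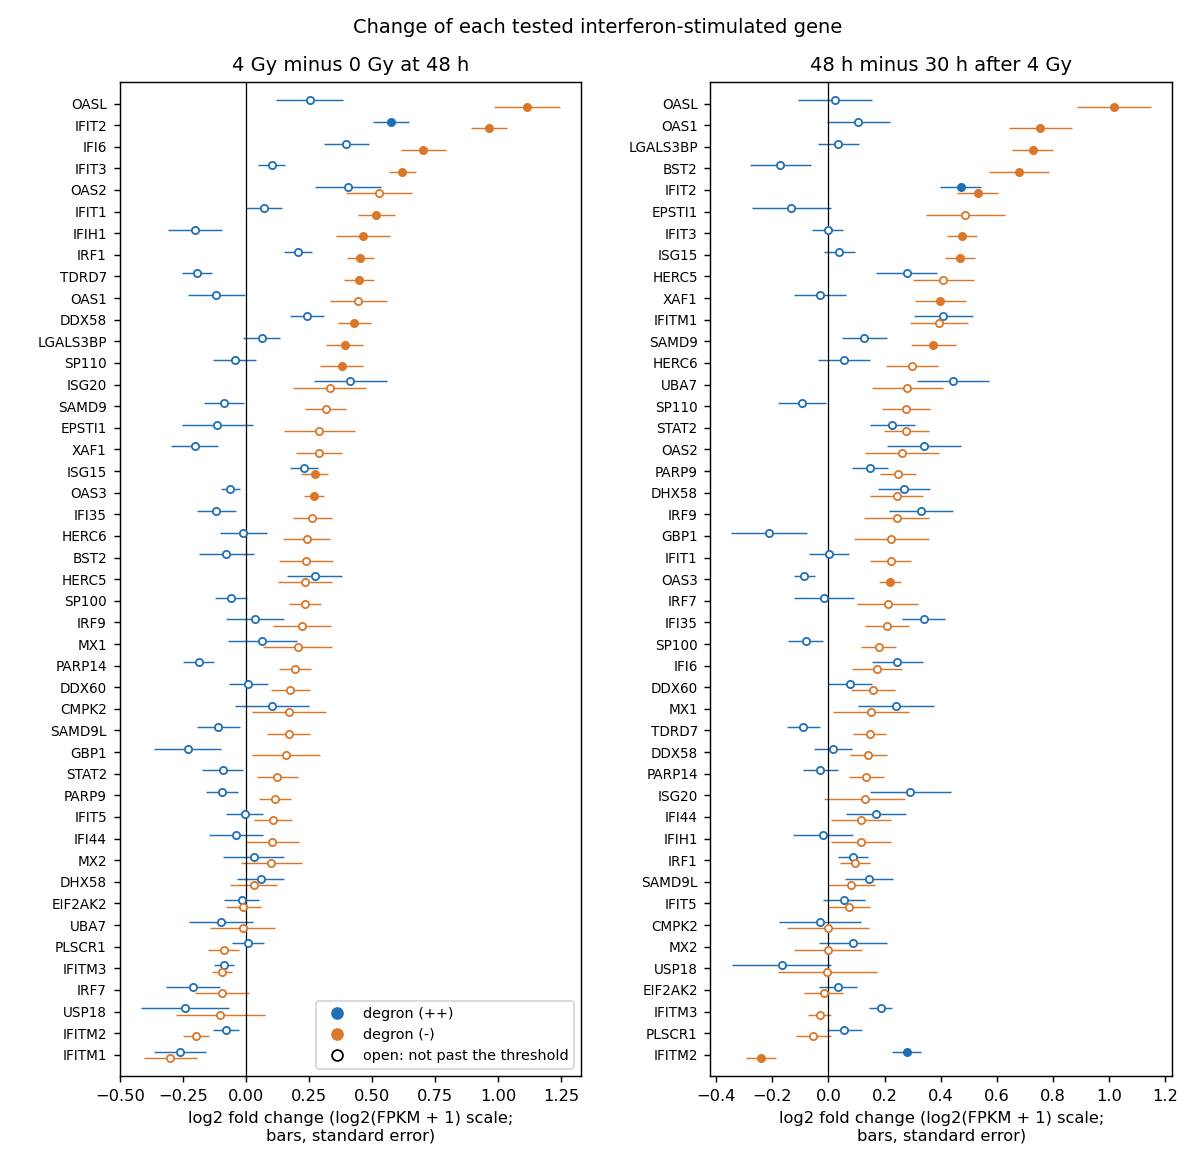
Log2 fold change (log2(FPKM + 1) scale) with its standard error for the 45 tested members, for 4 Gy minus 0 Gy at 48 h (left) and 48 h minus 30 h after 4 Gy (right), each ordered by the degron (-) value, with degron (++) in blue, degron (-) in orange and filled points past the threshold. The orange point lies right of the blue one for 38 members on the left and 29 on the right. The share of all genes with this order was not counted. Filled points number 13 and 11 in degron (-) and 1 and 2 in degron (++).

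Whether the changes differed between the populations was tested with interaction terms. For the change with dose, 1 member passed, against 0.0772% of all genes (0.0232% higher, 0.0541% lower), and 19 had an unadjusted p under 0.05. The share of all genes at the unadjusted cut was not counted, here or for the change with time. TDRD7 changed by -0.20 ± 0.0589 (SE) in degron (++), from 8.28 and 7.79 to 6.85 and 6.92 FPKM, and by 0.45 ± 0.0589 in degron (-), a difference of -0.64 ± 0.0833 (adjusted p = 0.0462). It did not pass with any 1 of the 8 libraries left out, when 0 members passed and 16 to 21 had an unadjusted p under 0.05. Of the calls over all genes here, 30.0% were higher, against 14.3% after quantile normalization and 20.0% after TPM rescaling. The median difference of the members was -0.22, against -0.01 over all genes. OASL differed by -0.86 ± 0.187 and IFIT3 by -0.52 ± 0.0759, and neither passed (adjusted p = 0.129 and 0.0581). The counts of 13 in degron (-) and 1 in degron (++) do not show by themselves that a given gene responded differently.

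For the change with time, 7 members passed, against 3.23% of all genes (0.51% higher, 2.72% lower), and 15 had an unadjusted p under 0.05. Those whose change in degron (++) minus that in degron (-) was below 0 were OASL (-0.99 ± 0.187, adjusted p = 0.0306), BST2 (-0.85 ± 0.153, 0.0263), LGALS3BP (-0.69 ± 0.103, 0.0145), IFIT3 (-0.48 ± 0.0759, 0.0174), ISG15 (-0.43 ± 0.0776, 0.0268) and OAS3 (-0.30 ± 0.0544, 0.0258). For IFITM2, which rose in degron (++) and fell in degron (-), it was above 0 (0.52 ± 0.0742, 0.0135). None of the first 6 passed between the times in degron (++), where LGALS3BP was at 357 and 355 FPKM at 30 h and 361 and 369 at 48 h, and BST2 at 130.3 and 124 and 110.2 and 115. OAS3 and IFIT3 did not pass after TPM rescaling (adjusted p = 0.117 and 0.0585). The count was 1 without either degron (++) library at 30 h, and 2 without either degron (++) library at 48 h, without the first degron (-) library at 30 h or without the second degron (-) library at 48 h. With only the 8 libraries compared it was 3.

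Of 53 other genes of the interferon pathway, 31 passed the filter. None of the 21 ligands did. The interferon alpha genes, IFNB1, IFNW1, IFNG and IL28A were listed at 0 in all libraries, and IFNE, the one ligand seen in every library, was at 0.0650 to 0.454 FPKM. At 0 Gy, 19 of the 31 genes were higher and 10 lower in degron (++), in a comparison in which 77.7% of all genes passed (37.6% higher, 40.2% lower). The type I receptor chain IFNAR1 was higher, at 10.3 and 10.7 against 6.57 and 6.93 FPKM (0.57, adjusted p = 5.72e-06), and IFNAR2 did not pass (0.01, adjusted p = 0.958). IL28RA, the specific chain of the type III receptor, was higher (1.44, adjusted p = 8.74e-07), and IFNGR2, a chain of the interferon gamma receptor, was lower at 11.6 and 11.7 against 38.8 and 41.0 FPKM (-1.69, adjusted p = 4.79e-09).

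Of the receptor kinases, JAK1 was lower in degron (++) (-0.28, adjusted p = 0.00015) and TYK2 was higher (0.22, adjusted p = 0.0211). Of 14 genes of nucleic acid sensing, 10 were higher and 4 were lower, beside 37.6% and 40.2% of all genes. IFI16, which binds DNA, was at 19.2 and 20.4 against 3.35 and 4.06 FPKM (2.15, adjusted p = 5.75e-08), and AIM2 (1.61, adjusted p = 4.88e-06), TLR3 (1.42, adjusted p = 1.02e-05) and the kinase IKBKE (1.35, adjusted p = 2.38e-06) were higher as well. IRF3, a transcription factor that activates interferon genes, was higher at 52.2 and 53.6 against 38.3 and 38.6 FPKM (0.45, adjusted p = 2.77e-05). The 4 lower genes, named after their values were seen, were the DNA sensor cGAS (MB21D1, -0.73, adjusted p = 8.81e-05), the adaptor STING (TMEM173, -0.77, adjusted p = 0.000255), TRAF3 (-0.60, adjusted p = 4.1e-05) and the TLR3 adaptor TICAM1 (-0.21, adjusted p = 0.0456). Of 6 inhibitors of the pathway, 4 were higher, by 0.34 to 0.73 on the log2 scale, and 2 were lower. The lower ones were SOCS1 (-1.06, adjusted p = 0.000308) and SOCS3 (-1.09, adjusted p = 4.21e-06), and the higher ones included the phosphatases PTPN1 (0.73, adjusted p = 1.08e-06) and PTPN2 (0.58, adjusted p = 6.37e-07), also named after their values were seen.

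With 4 Gy at 48 h, 1 of the 31 passed in degron (-) (3.23%, against 4.73% of all genes), IKBKE, which rose from 1.54 and 1.70 to 2.23 and 3.13 FPKM (0.48, adjusted p = 0.0377). None passed in degron (++), against 1.82% of all genes, and limma gave 6 an unadjusted p under 0.05. With time after 4 Gy, 2 passed in degron (-) (6.45%, against 7.18% of all genes) and 1 in degron (++) (3.23%, against 1.21%). In degron (-), IFI16 rose from 2.59 and 2.01 to 4.41 and 4.55 FPKM (0.74, adjusted p = 0.00268) and IFNGR2 fell (-0.24, adjusted p = 0.0223), and in degron (++) TRIM25, a ligase that acts on DDX58, fell (-0.22, adjusted p = 0.0337). The change of IFI16 differed between the populations (-0.76, adjusted p = 0.0233).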

How the data were processed

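RNA of 12 PANC-1 libraries (2 in each of 6 groups) was prepared with a stranded mRNA kit. The deposited values are FPKM per gene and library, made by the authors on hg19, and the submitters' processing notes name TopHat2 2.1.1, Bowtie2 2.2.8, SAMtools 0.1.18 and Cuffdiff 2.2.1. The annotation and the use of strand in counting are not given in the sources used here. Read totals are not given in those sources either, so no count model was fitted.

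Genes reaching 1 FPKM in 2 or more libraries were tested on log2(FPKM + 1) with limma 3.58.1 (lmFit, then eBayes with a trend, R 4.3.3) as 6 group means over all 12 libraries. P-values were two-sided and adjusted by Benjamini-Hochberg over all 12946 genes. Tables and plots were made in Python 3.11.15. Groups were taken from the sample titles. No replicate files were identical, and since nothing says that replicates came from separate cultures, p-values measure only the spread between these samples. Scripts were tested on simulated data.

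Members and gene lists were chosen with earlier results of these data known. Values in every library were given for the 8 highest and the 8 lowest differences at 0 Gy, for members past the threshold in a dose, time or interaction comparison and for the 3 most abundant, and further members were given by role. Other pathway genes were named where they passed with a log2 fold change of at least 1 in size, with 6 fixed exceptions, and some genes that this rule names are not reported here. Alternatives were TPM rescaling, quantile normalization, a pseudocount of 0.1, a stricter filter (5 FPKM) or none, no trend, a replicate block, only the compared libraries, and leaving out each library.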

Additional observations from a re-analysis of the deposited data

Results flagged for a closer look

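Changes of 8 members differed between degron (++) and degron (-) cells past the threshold of an interaction test (limma, adjusted over all genes). The change of TDRD7 with 4 Gy at 48 h was lower in degron (++) by a log2 difference of -0.64. From 30 h to 48 h after 4 Gy, the change in degron (++) minus that in degron (-) was -0.99 for OASL, -0.85 for BST2, -0.69 for LGALS3BP, -0.48 for IFIT3, -0.43 for ISG15, -0.30 for OAS3 and 0.52 for IFITM2. The call of TDRD7 was lost with any 1 of 8 libraries left out, as was that of ISG15, and each of the others was lost in at least 2 of 8 such fits. The 9p21 measure in degron (-) was 10.5 to 11.8 at 30 h and 20.1 to 22.5 at 48 h, and its part in these differences was not tested.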

How the results depend on the processing

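With 2 libraries in a group, calls of changes within a population depended on the spread shared by all 12 libraries. With only the libraries compared, members past the threshold fell to 0 for dose in degron (++), dose in degron (-), time in degron (++), time in degron (-) and the dose interaction (11, 24, 15, 23 and 17 at an unadjusted p under 0.05 with limma), and to 3 for the time interaction. The share of all genes at that unadjusted cut was not counted. For time in degron (++) the count of 2 became 1 with no filter, quantile normalization, TPM rescaling, no trend or the replicate block. For the dose interaction the count of 1 became 0 with no filter or the replicate block (20 and 17 at an unadjusted p under 0.05), 2 with the filter at 5 FPKM and 3 with quantile normalization, which added OAS3 and IFIT3. The difference of HERC5 at 0 Gy was reversed to 0.07 by quantile normalization. With each library left out in turn, members past the threshold numbered 35 to 38 at 0 Gy (40 with all), 34 to 37 at 30 h (36), 36 to 40 at 48 h after 4 Gy (40), 0 for dose in degron (++) (1), 5 to 13 for dose in degron (-) (13), 0 for time in degron (++) (2), 6 to 9 for time in degron (-) (11), 0 for the dose interaction (1) and 1 to 6 for the time interaction (7). Of 421 values of named members under another scaling, filter or fit, 361 kept direction and side of the threshold, 59 no longer passed and 1 reversed. Of 244 with a library left out, 146 kept both, 98 no longer passed and 0 reversed. Same-numbered libraries of different groups did not deviate together (15 pairs, r from -0.0381 to 0.122, 2 over 0.1), so replicate numbers were not taken as pairs. With the replicate block the counts were 39, 36 and 39 between populations, 1 and 11 for dose, 1 and 11 for time, and 0 and 7 for the interactions. Only relative read depth could be had, so members below 1 FPKM could not be judged for counting error.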
